A study of Mus musculus with 2 samples.

Results

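The genes described here encode 4 subunits of the phagocyte NADPH oxidase (*Cybb*, *Cyba*, *Ncf1* and *Ncf4*), the itaconate-producing enzyme *Acod1*, the mitochondrial superoxide dismutase *Sod2*, and 3 genes of the glutathione and NRF2 response (*Gclm*, *Gclc* and *Nqo1*). They were taken by symbol, which gave 9 of the 31053 genes in the single-cell count matrices of day 5 mouse skin wounds. The phagocyte oxidase is a membrane enzyme that passes electrons from NADPH to oxygen and so makes superoxide, which phagocytes use against microbes. Its membrane core is a pair of proteins, gp91phox and p22phox, and it becomes active when cytosolic subunits join it. Itaconate is made from the TCA cycle intermediate cis-aconitate by activated myeloid cells, and it is known both as an antimicrobial metabolite and as an activator of NRF2, the transcription factor that drives glutathione synthesis and other antioxidant enzymes.

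Both groups were C57BL/6 *Mrc1-DTR* mice of 7 to 9 weeks, in which the *Mrc1* promoter (*Mrc1* encodes the mannose receptor CD206) drives the receptor for diphtheria toxin. One group was given PBS and the other diphtheria toxin (DTX), and live cells that excluded 7AAD were sorted from wounds of the back skin for 10x Genomics 3′ libraries. According to the methods, cells of 3 mice were pooled for each group and there was no biological replicate. The methods name the control mice as wild type given the toxin, whereas the labels give *Mrc1-DTR* mice given PBS. The groups are therefore called here the PBS library and the DTX library, and these names follow the labels. With 1 library per group no difference between them could be tested, and a group cannot be told apart from its library.

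The PBS library held 12058 barcodes and 105511870 unique molecular identifiers (UMIs), with a median of 7649 per barcode, and the DTX library held 11031 barcodes and 81858751 UMIs, with a median of 6502. The filter asked for 500 genes or more per cell and no more than 6% of UMIs from mitochondrial genes, and after removal of likely doublets 7944 and 6613 cells remained, which formed 15 clusters. The larger barcode number is the one that the study gives to its toxin-sensitive mice and the smaller the one it gives to its controls, the reverse of the labels, and the direction of every DTX to PBS value rests on the labels. Macrophage-like cells were 21.4% of the cells kept in the library labelled PBS and 67.4% of those in the library labelled DTX. There were 37 barcode sequences present in both libraries. Clusters were named from marker genes as macrophage-like (1703 cells in the PBS library, 4458 in the DTX library), neutrophil-like (119 and 430), fibroblast-like (3066 and 657), epithelial-like (2066 and 235), dendritic-like (468 and 449), Langerhans-like, NK or T-like, endothelial-like, pericyte-like and mast-like. All 8 neutrophil markers were raised in the neutrophil-like cluster, whose median UMI count was 0.234 of that of its libraries. The targeted gene *Mrc1* was still present in the macrophage-like cells of the DTX library, at 432 counts per 1000000 UMIs of the class (CPM; 13303 UMIs), beside 493 CPM in the PBS library (4111 UMIs).

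Levels are the summed UMIs of a gene in a class as CPM, and the ranges beside them are exact Poisson 95% intervals. Ratios are log2 of (CPM + 1), with the exact 95% interval of the ratio of the counts themselves, which leaves out the added 1 CPM and so can miss the ratio of a very low gene. All intervals cover counting error only, not the spread between mice. A gene was counted as higher or lower when it passed 2-fold and had at least 50 UMIs over both groups. The 9 genes did not enter the clustering of all cells or that of the macrophage-like cells, and differences between classes are given as a description.

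The reference promoters of 7 of the 9 genes could be read (RefSeq, GRCm38.p6; 250 bases before the transcription start and 50 after it), and those of *Gclm*, *Acod1* and *Sod2* are shown because these genes mark 3 different patterns below. Capitals mark the letters that matched a searched motif on either strand.
Gclm promoter, chr3:122245307-122245606 (+): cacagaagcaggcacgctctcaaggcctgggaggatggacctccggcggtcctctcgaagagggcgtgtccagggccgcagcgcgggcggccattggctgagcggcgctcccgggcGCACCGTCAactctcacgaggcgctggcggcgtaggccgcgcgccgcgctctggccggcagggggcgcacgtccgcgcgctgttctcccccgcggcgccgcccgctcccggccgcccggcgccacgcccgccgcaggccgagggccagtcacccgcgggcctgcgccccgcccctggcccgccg
Acod1 promoter, chr14:103046762-103047061 (+): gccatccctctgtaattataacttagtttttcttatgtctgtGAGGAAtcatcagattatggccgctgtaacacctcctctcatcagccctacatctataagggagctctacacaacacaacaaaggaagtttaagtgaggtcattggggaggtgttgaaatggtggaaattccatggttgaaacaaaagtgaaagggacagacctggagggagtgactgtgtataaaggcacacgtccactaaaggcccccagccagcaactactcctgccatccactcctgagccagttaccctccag
Sod2 promoter, chr17:13007589-13007888 (+): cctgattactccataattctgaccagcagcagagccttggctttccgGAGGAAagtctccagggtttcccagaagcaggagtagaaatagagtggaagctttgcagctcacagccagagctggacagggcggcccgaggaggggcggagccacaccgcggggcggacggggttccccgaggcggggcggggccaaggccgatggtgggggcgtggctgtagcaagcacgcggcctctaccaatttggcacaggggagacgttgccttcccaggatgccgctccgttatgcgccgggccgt
The capitals in *Gclm* are a match on the opposite strand, 134 bases before the start, to TGACNNNGC, the core of the antioxidant response element that NRF2 binds. This string was found in 1 of the 7 windows and in 12.4% of 32851 mouse promoters of the same length. The capitals in *Acod1* and *Sod2* are GAGGAA, the core read by the myeloid factor PU.1, at 208 and 203 bases before the start. That core was found in 28.3% of promoters, and the *Cybb* window also held it, 10 bases after the start on the opposite strand. The kappaB string searched, GGG followed after any 3 bases by TTCC and present in 5.56% of promoters, was not found in any of the 7 windows. Other forms of the kappaB site were not searched, so the windows may hold such a site.

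The oxidase subunits were spread unevenly over the wound cells, and their core and cytosolic parts had different distributions. *Cybb* (chromosome X, 9435252 to 9487771 on GRCm38) encodes gp91phox, the catalytic subunit. Its level in macrophage-like cells was 599.8 CPM (583 to 617) in the PBS library and 386 CPM (379 to 393) in the DTX library. Dendritic-like cells came next, at 155 CPM (144 to 168) and 145 CPM (135 to 156), and every other class with at least 20 cells in both libraries lay at or below 80.5 CPM. Macrophage-like cells held 85.7% of the *Cybb* UMIs of the PBS library and 92.1% of those of the DTX library.

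*Cyba* (chromosome 8, 122424776 to 122432930), whose product p22phox is the partner of gp91phox, was detected more widely. In macrophage-like cells it stood at 2136 CPM (2104 to 2167) in the PBS library and at 2119.9 CPM (2104 to 2136) in the DTX library, so the intervals overlapped. In neutrophil-like cells it was 1491 CPM (1302 to 1701) and 977 CPM (913 to 1044), and in dendritic-like cells 1407 CPM (1372 to 1443) and 1655 CPM (1619.7 to 1690.4). Neutrophil-like and dendritic-like cells thus could not be ordered in the PBS library, while in the DTX library the neutrophil-like level was the lower. Fibroblast-like cells had 182 and 258 CPM and epithelial-like cells 14.6 and 70.6 CPM, the lowest of all classes.

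*Ncf1* (chromosome 5, 134220053 to 134229625) encodes p47phox, the cytosolic organiser of the complex, and was lower in macrophage-like cells than in several other classes. Neutrophil-like cells had 228 CPM (158 to 319) in the PBS library and 205 CPM (176 to 236) in the DTX library. Dendritic-like cells had 142 CPM (131 to 154) and 176 CPM (165 to 188), and macrophage-like cells 63.3 CPM (58.0 to 68.9) and 85.9 CPM (82.6 to 89.2). In both libraries the macrophage-like interval lay below those of the neutrophil-like and dendritic-like cells, while the intervals of these last classes overlapped in the DTX library. The mast-like cells, described below with *Acod1*, had 386 CPM (302 to 486) and 145 CPM (89.8 to 222) from 34 and 19 cells.

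*Ncf4* (chromosome 15, 78244801 to 78262580) encodes p40phox, which binds phosphatidylinositol 3-phosphate on phagosomes. It was 363 CPM (273 to 473) in neutrophil-like cells and 335 CPM (304 to 368) in Langerhans-like cells of the PBS library. In the DTX library these classes had 292 CPM (257 to 329) and 393 CPM (335 to 457). Their intervals overlapped in the PBS library and did not in the DTX library. Macrophage-like cells had 169 CPM (160.4 to 178) and 230.3 CPM (225 to 236), below both. Langerhans-like cells, the resident dendritic cells of the epidermis, had 23.8 and 33.5 CPM of *Cybb* beside this level of *Ncf4*.

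**Figure D1:**
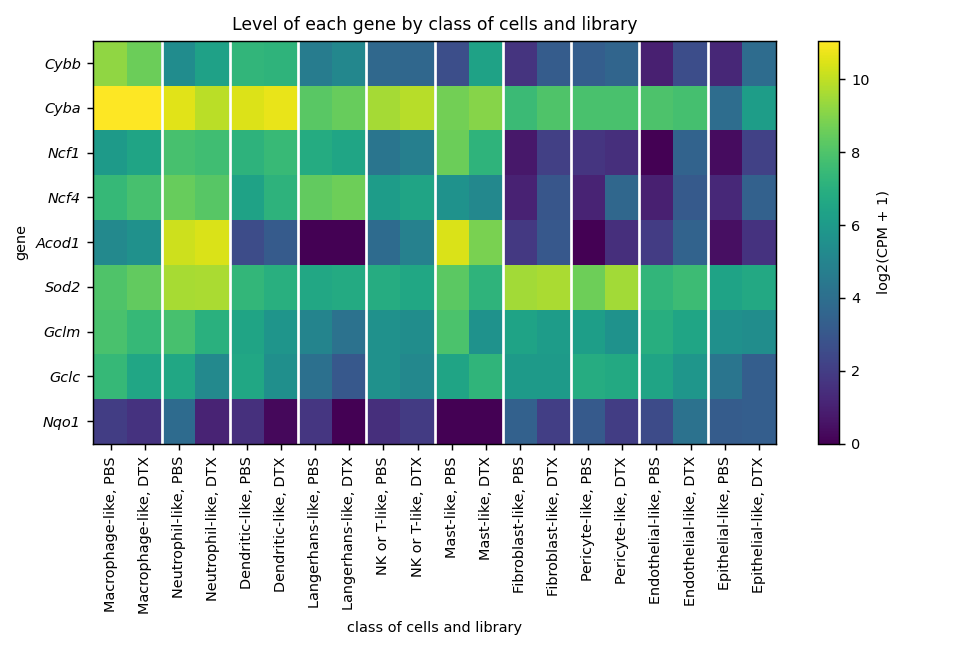
Levels of the 9 genes in 10 cell classes, as log2(CPM + 1) from summed UMIs, with 1 column for each class and library. *Cybb* was highest in macrophage-like cells (599.8 and 386 CPM), *Acod1* in neutrophil-like cells and the mast-like class, and *Sod2* in neutrophil-like and fibroblast-like cells, with pericyte-like cells near them in the DTX library. Within the mast-like class, *Acod1* had 254 and 65 UMIs in cells with more *Mcpt8* and *Prss34* UMIs. It had 0 and 1 in those with more *Mcpt4*, *Cma1* and *Tpsb2* UMIs.

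*Acod1* (chromosome 14, 103046977 to 103056573), the enzyme that makes itaconate, had the steepest gradient between classes. It was 1189 CPM (1020.4 to 1378) in the neutrophil-like cells of the PBS library, from 177 UMIs, and 1368 CPM (1292 to 1447) in those of the DTX library, from 1224 UMIs. Macrophage-like cells had 35.4 CPM (31.5 to 39.7) and 47.3 CPM (44.9 to 49.8). In Langerhans-like cells there was no *Acod1* UMI in either library, which leaves upper bounds of 2.93 and 8.83 CPM. Dendritic-like cells stood at 4.99 and 8.03 CPM.

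After thinning each cell to 1000 UMIs, 58.6% of 99 neutrophil-like cells of the PBS library and 65.3% of 426 of the DTX library held an *Acod1* UMI. Thinning left out 20 and 4 shallower cells of that class. In macrophage-like cells the share was 3.16% and 4.24%, and in epithelial-like cells, which serve as the background, 0.0484% (1 of 2064 cells) and 0 of 233 cells, which allows a share of up to 1.29%. Without thinning the shares were 58.0% and 80% in neutrophil-like cells, whose median depth was 1204 and 1874 UMIs, and 7.75% and 10.9% in macrophage-like cells, at 4705 and 6732 UMIs. The neutrophil-like cells therefore held *Acod1* more often at the same depth and also at a lower one.

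The mast-like class had an *Acod1* level as high as that of the neutrophil-like cells in the PBS library, 1382 CPM (1219 to 1561) from 34 cells, and 463 CPM (359 to 588) from 19 cells of the DTX library. These cells were divided, after their values had been seen, by the proteases they held. In cells with more UMIs of *Mcpt8* and *Prss34*, proteases known from basophils, *Acod1* was found in 20 of 20 cells of the PBS library with 254 UMIs, and in 4 of 5 cells of the DTX library with 65 UMIs. In cells with more UMIs of the mast cell proteases *Mcpt4*, *Cma1* and *Tpsb2* there were 0 UMIs in 13 cells and 1 UMI in 13 cells. *Ncf1* had the same division, with 71 and 18 UMIs against 0 and 1. The neutrophil genes *S100a8* and *S100a9* together had 30 and 111 UMIs in the *Mcpt8* and *Prss34* cells, and their part in the *Acod1* counts was not tested.

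*Sod2* (chromosome 17, 13006846 to 13040063), which turns superoxide into hydrogen peroxide in mitochondria, was high in cells of different lineages. Neutrophil-like cells had 793 CPM (656 to 949) and 815 CPM (757 to 876) in the PBS and DTX libraries. Fibroblast-like cells had 744 CPM (735 to 753) and 809.6 CPM (792 to 828), so these classes could not be ordered in either library. Pericyte-like cells had 392 CPM (352 to 436) and 732 CPM (692 to 774), and macrophage-like cells 260.1 CPM (249.3 to 271) and 334 CPM (327 to 340.4). Fibroblast-like cells held 80.6% of all *Sod2* UMIs of the PBS library and 36.6% of those of the DTX library. The fibroblast-like cluster led by *Ctsk* and *Serpina3n* had 942 and 1037 CPM and the one led by *Mfap5* and *Sfrp2* 417 and 661 CPM. The share of cells with a *Sod2* UMI after thinning was 46.8% and 49.3% in fibroblast-like cells and 43.4% and 42.0% in neutrophil-like cells, against 8.14% and 10.3% in epithelial-like cells.

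*Gclc* (chromosome 9, 77754535 to 77794485) and *Gclm* (chromosome 3, 122245557 to 122270732) encode the catalytic and the modifier subunit of glutamate-cysteine ligase, the rate-limiting enzyme of glutathione synthesis. In the PBS and DTX libraries *Gclm* was 234 CPM (224 to 245) and 168 CPM (163 to 172) in macrophage-like cells and 228 CPM (158 to 319) and 129.6 CPM (107 to 155) in neutrophil-like cells. *Gclc* was 168 CPM (159 to 177) and 93.5 CPM (90.1 to 97.0) in macrophage-like cells and 94.1 CPM (51.4 to 158) and 35.8 CPM (24.5 to 50.5) in neutrophil-like cells. Macrophage-like and neutrophil-like cells could not be ordered for *Gclm* in the PBS library, and macrophage-like cells had more *Gclc* in both, though in the PBS library this turned around (log2 ratio of neutrophil-like to macrophage-like cells 0.24) at a finer clustering of all cells.

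*Nqo1* (chromosome 8, 107388225 to 107403206), a quinone reductase and a classical NRF2 target, was low throughout. Its highest levels from at least 20 UMIs were 9.79 CPM (8.78 to 10.9) in fibroblast-like cells of the PBS library and 9.01 CPM (6.28 to 12.5) in epithelial-like cells of the DTX library, which had 8.32 CPM (7.30 to 9.45) in the PBS library. In macrophage-like cells there were 25 and 64 UMIs, or 3.001 and 2.08 CPM, and in neutrophil-like cells 2 UMIs and 1 UMI. Neutrophil-like levels of *Nqo1* were thus not measurable at this depth.

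The comparison of neutrophil-like with macrophage-like cells asks how the RNA of these genes is divided between the main phagocytes of the wound. Protein and enzyme activity were not measured, so a low RNA level does not show that a cell lacks the protein. In both libraries *Acod1*, *Sod2* and *Ncf1* were higher in neutrophil-like cells and *Cybb* was higher in macrophage-like cells. Of 8 members with enough UMIs in the PBS library, 4 were higher (*Acod1*, *Ncf1*, *Sod2* and *Ncf4*) and 1 was lower (*Cybb*) in neutrophil-like cells, where 14.6% of all 7576 genes were higher and 36.3% lower. Of 9 in the DTX library, 3 were higher (*Acod1*, *Sod2* and *Ncf1*) and 3 lower (*Cybb*, *Gclc* and *Cyba*), where 9.86% of 9788 genes were higher and 42.4% lower. The median log2 ratio of the members was 0.53 in the PBS library and −0.37 in the DTX library, beside −0.44 and −0.76 over all genes.

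For *Acod1* the log2 ratio of neutrophil-like to macrophage-like cells was 5.03 (4.79 to 5.34) in the PBS library and 4.82 (4.74 to 4.96) in the DTX library, or 32.7-fold and 28.3-fold. *Sod2* was higher by 1.60 (1.33 to 1.88) and 1.28 (1.18 to 1.40) on the same scale. *Ncf1* was higher by 1.84 (1.31 to 2.35) and 1.24 (1.03 to 1.47). These 3 genes kept their side of 2-fold in both libraries, whereas *Ncf4*, at 1.10 (0.68 to 1.49) and 0.34 (0.16 to 0.52), passed it in the PBS library and not in the DTX library. The removal of doublets bore on the DTX library: without it the neutrophil-like class grew from 430 to 563 cells, *Acod1* stood at 4.20, and *Sod2* (0.69) and *Ncf1* (0.92) were within 2-fold.

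*Cybb* went the other way, with a log2 ratio of −3.86 (−5.34 to −2.77) in the PBS library and −2.25 (−2.62 to −1.93) in the DTX library. It rested on few neutrophil-like UMIs, 6 and 72, and in the DTX library 22 cells (5% of the class) held 90.3% of them. Without removal of doublets the DTX value was −0.86. After thinning, 3.03% and 3.76% of neutrophil-like cells held a *Cybb* UMI, beside 41.6% and 28.4% of macrophage-like cells and 0.242% and 1.29% of epithelial-like cells. Without thinning these shares were 2.52% and 6.74% for neutrophil-like, 82.6% and 75.0% for macrophage-like and 1.36% and 6.81% for epithelial-like cells. Unthinned, these shares compare neutrophil-like cells of 1204 and 1874 UMIs with epithelial-like cells of 12592 and 16070. At the depth of 1000 UMIs the neutrophil-like interval lay above the epithelial-like one in the PBS library (0.629% to 8.601%, and 0.0787% to 0.564%), and the intervals overlapped in the DTX library (2.16% to 6.03%, and 0.266% to 3.72%). Thinning takes out a larger part of the UMIs of the deeper epithelial-like cells, and so lowers their share more. Whether neutrophil-like cells held *Cybb* above background was not tested.

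Markers of macrophages were present in the neutrophil-like cells and were set beside *Cybb*. The summed level of 10 macrophage markers there was 4159 CPM in the PBS library, with *Mrc1* and *Fcgr1* at 0, and 6045 CPM in the DTX library, with none at 0, against 17981 and 13880 CPM in macrophage-like cells. *Lyz2*, which neutrophils also express, is in that sum. For each 1000 UMIs of *Lyz2* there were 37.0 and 57.3 *Cybb* UMIs in neutrophil-like cells and 70.8 and 50.4 in macrophage-like cells. For each 1000 UMIs of the 5 markers *C1qa*, *C1qb*, *Mrc1*, *Ms4a7* and *Adgre1* there were 333 and 268 in neutrophil-like cells and 87.8 and 128 in macrophage-like cells. The neutrophil-like values rest on few counts, 6 and 72 *Cybb* UMIs over 18 and 269 UMIs of these markers. Whether the *Cybb* UMIs of the neutrophil-like cells came from other cells was not tested.

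**Figure D2:**
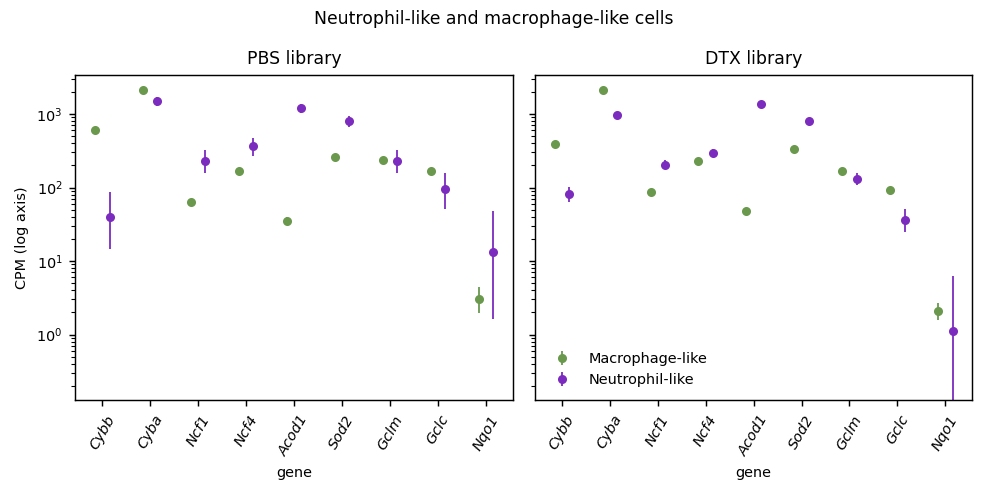
Levels of the 9 genes in macrophage-like and neutrophil-like cells of both libraries, in CPM on a log axis, with exact Poisson 95% intervals. *Acod1* lay near 1189 and 1368 CPM in neutrophil-like cells and at 35.4 and 47.3 CPM in macrophage-like cells, while *Cybb* was at 40.3 and 80.5 CPM against 599.8 and 386 CPM.

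Other genes of the pathways were read from lists of known components. Of 9 oxidase genes found (*Cybc1* was not among the symbols of the matrices), 3 were higher (*Ncf1*, *Ncf4* and *Rac2*) and 2 lower (*Cybb* and *Hvcn1*) in neutrophil-like cells of the PBS library, and 2 were higher (*Ncf1* and *Rac2*) and 2 lower (*Cybb* and *Cyba*) in those of the DTX library. Over all genes 14.6% were higher and 36.3% lower in the PBS library, and 9.86% and 42.4% in the DTX library. *Rac2*, the small GTPase that activates the complex in granulocytes, was 578 and 409 CPM in neutrophil-like cells and 159 and 144 CPM in macrophage-like cells, a log2 ratio of 1.85 (1.53 to 2.17) and 1.502 (1.35 to 1.66). *Hvcn1*, a proton channel named after its values were seen, had 0 and 7 UMIs in neutrophil-like cells, classes of 148851 and 894801 UMIs in all. In macrophage-like cells it was 25.6 and 14.4 CPM. The call of *Hvcn1* as lower thus rests on too few UMIs to be read at this depth.

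In the list of NRF2 and glutathione genes, 4 of 17 were higher and 4 lower in the neutrophil-like cells of the PBS library, and 4 of 18 were higher and 6 lower in those of the DTX library, where 14.6% and 9.86% of all genes were higher and 36.3% and 42.4% lower. The same 4 genes were higher in both libraries: *Slc7a11*, *Gsr*, *Nfe2l2* and *Osgin1*. *Slc7a11*, the cystine importer that feeds glutathione synthesis, was 4414 and 3500.2 CPM in neutrophil-like cells against 383 and 670.3 CPM in macrophage-like cells, a log2 ratio of 3.52 (3.40 to 3.65) and 2.38 (2.33 to 2.44). *Gsr*, glutathione reductase, was 524 and 466 CPM against 86.9 and 158 CPM. *Hmox1*, the heme-degrading enzyme, had the opposite order, at 1102 and 691 CPM against 4156 and 2379 CPM.

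In the list of superoxide and peroxide removal, 4 of 16 genes were higher and 6 lower in neutrophil-like cells of the PBS library, and 3 were higher and 8 lower in those of the DTX library, so that the lower genes were near the 36.3% and 42.4% of all genes. The share of all genes that were higher was 14.6% and 9.86%. Beside *Sod2*, the peroxiredoxin gene *Prdx5*, also named after its values were seen, was higher in both, at 1545 and 2378 CPM against 439 and 831 CPM. *Sod1*, the cytosolic dismutase, was lower by 1.35 and 1.39 on the log2 scale (47.0 and 36.9 CPM, 7 and 33 UMIs). In the list of itaconate and nearby TCA cycle genes *Acod1* was the higher gene in both libraries, with 2 of 8 and 6 of 9 genes lower, beside the same 36.3% and 42.4% of all genes. Of 12 other oxidant-producing enzymes 1 could be read in each library, and it was within 2-fold.

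The comparison of the DTX with the PBS library asks what differed in each class when mice of the toxin group were sampled. In macrophage-like cells 0 of the 9 members passed 2-fold, where 1.65% of 10185 genes were higher and 3.33% lower. Below that size, 3 members were lower in the DTX library, with log2 ratios of −0.63 (−0.68 to −0.59) for *Cybb*, −0.84 (−0.94 to −0.75) for *Gclc* and −0.48 (−0.56 to −0.41) for *Gclm*. Another 4 were higher, by 0.43 (0.31 to 0.58) for *Ncf1*, 0.44 (0.36 to 0.53) for *Ncf4*, 0.41 (0.24 to 0.60) for *Acod1* and 0.36 (0.29 to 0.43) for *Sod2*. *Cyba*, at −0.01 (−0.03 to 0.01), and *Nqo1*, at −0.38 (−1.22 to 0.20), had intervals that included 0. The median of the members was −0.01, beside 0.06 for all genes.

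The macrophage-like class was not made of the same cells in both libraries. Its subclusters led by *Cd9* and by *Vcan* held 14 and 28 cells of the PBS library but 1208 and 1191 of the DTX library. Giving the subclusters the same weight in both libraries put the log2 ratio of *Ncf4* at −0.05, of *Sod2* at 0.10 and of *Acod1* at −0.21. The *Acod1* value rested on 9 UMIs in the 14 Cd9-like cells of the PBS library, and over the 5 subclusters with at least 20 cells in each library it was 0.27, with *Ncf4* at −0.04, *Sod2* at 0.07 and *Cybb* at −0.35.

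In neutrophil-like cells 0 of 7 members passed 2-fold between libraries, where 6.56% of 2241 genes were higher and 6.87% lower in the DTX library. *Acod1* differed by 0.20 (−0.03 to 0.44), *Sod2* by 0.04 (−0.24 to 0.33) and *Ncf1* by −0.16 (−0.69 to 0.41), with intervals that included 0. *Cyba* was lower by 0.61 (0.39 to 0.82 lower) and *Gclm* by 0.81 (0.22 to 1.38 lower), beside a median of −0.17 over all genes. *Cybb* stood at 0.98 (−0.19 to 2.49). *Gclc* had 14 and 32 UMIs and was too low to be counted.

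In dendritic-like cells 1 of 8 members passed 2-fold, where 1% of 7973 genes were higher and 1.61% lower. This was *Gclc*, which was 94.1 CPM (85.1 to 104) in the PBS library and 44.9 CPM (39.2 to 51.1) in the DTX library, a log2 ratio of −1.05 (−1.31 to −0.83). Within the class, *Gclc* went from 109 CPM (96.9 to 121) to 43.8 CPM (37.6 to 50.8) in the cluster led by *Ccr7* and *Ccl22*. In the cluster led by *Cst3* it went from 61.4 CPM (48.6 to 76.5) to 48.4 CPM (36.5 to 63.0), with overlapping intervals. At resolution 0.5 a cluster led by *Cst3* was named macrophage-like. *Gclm* was also lower in the dendritic-like class, by 0.67 (0.45 to 0.91 lower). *Ncf4* was higher, from 82.7 CPM (74.3 to 91.9) to 143 CPM (133 to 154), a log2 ratio of 0.78 (0.60 to 0.98), while *Cybb* differed by −0.09 (−0.25 to 0.06).

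**Figure D3:**
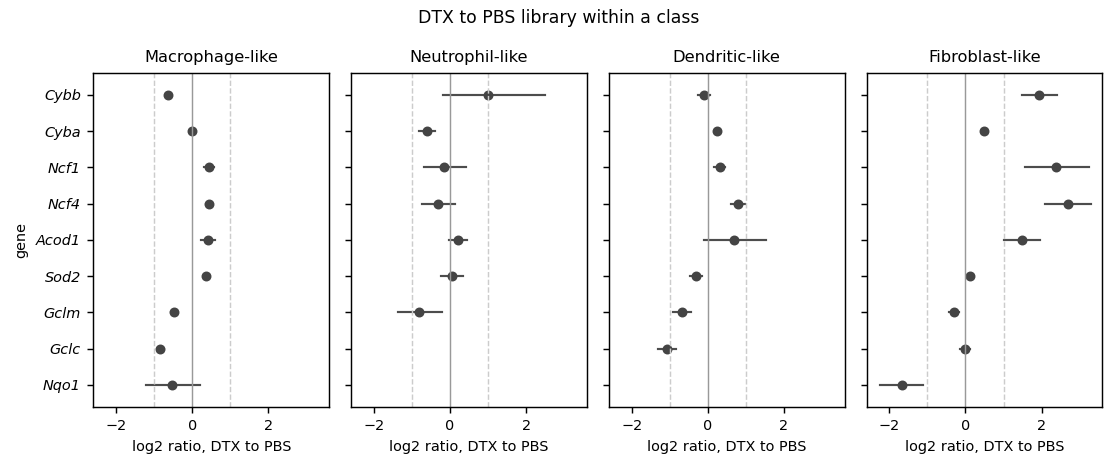
Log2 ratio of CPM, with no CPM added, of the DTX to the PBS library for the members with at least 50 UMIs, in macrophage-like, neutrophil-like, dendritic-like and fibroblast-like cells, with exact 95% intervals. Dashed lines mark 2-fold. *Gclc* lay below 0 in macrophage-like and dendritic-like cells, and the oxidase genes other than *Cyba* lay above 2-fold in fibroblast-like cells, where they had at most 82 UMIs in a library.

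In fibroblast-like cells 4 of 9 members were higher in the DTX library, where 2.65% of 11814 genes were, and 1 was lower, where 1.4% were. The 4 higher members were *Cybb* (2.20 and 8.44 CPM, a log2 ratio of 1.56), *Ncf4* (1.06 and 6.79 CPM, 1.92), *Ncf1* (0.628 and 3.29 CPM, 1.40) and *Acod1* (2.57 and 7.20 CPM, 1.2004), which are genes of phagocytes. The fifth was *Nqo1*, described below. In epithelial-like cells 3 of 7 were higher, where 2.67% of 10288 genes were and 2.07% were lower. These were *Cybb* (1.33 and 14.2 CPM, 2.70), *Cyba* (14.6 and 70.6 CPM, 2.20) and *Ncf4* (1.40 and 9.79 CPM, 2.17). When cells above 2000 genes were dropped, 61 fibroblast-like and 16 epithelial-like cells of the DTX library were left. Then 1 member passed in fibroblast-like cells (*Gclc*, −1.06, not among those named above) and 0 in epithelial-like cells. So few cells could not show whether the differences named above persist. Without removal of doublets the fibroblast-like value of *Cybb* was 0.56, within 2-fold, while *Ncf1* (1.06) and *Ncf4* (1.26) stayed past it. With a mitochondrial limit of 10% *Acod1* was at 0.91 there.

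The summed level of the 10 macrophage markers moved with these values, from 117 to 432 CPM in fibroblast-like cells and from 71.1 to 465 CPM in epithelial-like cells, with no marker at 0 in either class. The neutrophil marker sum went from 23.7 to 118 CPM and from 117 to 543 CPM. *Cybb* per 1000 *Lyz2* UMIs was 47.2 and 41.3 in fibroblast-like cells and 39.7 and 55.5 in epithelial-like cells, beside 70.8 and 50.4 in macrophage-like cells. Per 1000 UMIs of *C1qa*, *C1qb*, *Mrc1*, *Ms4a7* and *Adgre1* together it was 75.6 and 80.9 in fibroblast-like cells. By that measure it was 61.0 and 137 in epithelial-like cells, beside 87.8 and 128 in macrophage-like cells. *Cyba* per 1000 *Lyz2* UMIs was 3922 and 1261 in fibroblast-like cells, far above the 252 and 276 of macrophage-like cells, and 435 and 276 in epithelial-like cells. In the DTX library 6 fibroblast-like cells held 68.6% of the *Acod1* UMIs of the class. The part of macrophage or neutrophil RNA in these differences was not tested.

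**Figure D4:**
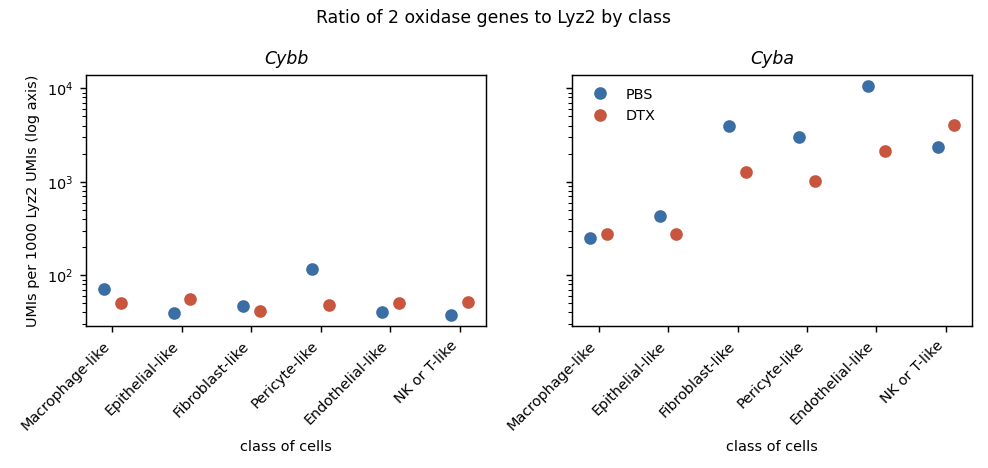
UMIs of *Cybb* and of *Cyba* per 1000 UMIs of *Lyz2* in each library, on a log axis. The classes shown are macrophage-like, epithelial-like, fibroblast-like, pericyte-like, endothelial-like and NK or T-like cells. *Cybb* was between 39.7 and 70.8 in fibroblast-like, epithelial-like and macrophage-like cells, while *Cyba* was 3922 and 1261 in fibroblast-like cells against 252 and 276 in macrophage-like cells.

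*Nqo1* was the fibroblast-like gene that was lower, at 9.79 CPM (8.78 to 10.9) in the PBS library and 3.09 CPM (2.08 to 4.41) in the DTX library, a log2 ratio of −1.40 from 343 and 30 UMIs. Within the fibroblast-like cluster led by *Ctsk* it was 13.7 CPM (12.2 to 15.4) and 3.65 CPM (1.99 to 6.12), on 300 and 14 UMIs. In the one led by *Mfap5* it was 3.25 CPM (2.36 to 4.38) and 2.72 CPM (1.55 to 4.42), with overlapping intervals. *Gclc* in the fibroblast-like class was 65.0 and 64.9 CPM (log2 ratio −0.00, −0.13 to 0.13) and *Gclm* 85.1 and 69.1 CPM (−0.30, −0.42 to −0.18), so its glutathione genes were within 2-fold. *Sod2* was higher by 0.12 (0.09 to 0.16) in fibroblast-like cells and by 0.90 (0.73 to 1.07) in pericyte-like cells, and lower by 0.31 (0.16 to 0.48 lower) in dendritic-like cells. The fibroblast-like values of *Nqo1* and *Sod2* pool clusters in different proportions. Those led by *Ctsk* and *Mfap5* held 2160 and 906 cells of the PBS library and 313 and 344 of the DTX library. Within them *Sod2* went from 942 to 1037 CPM and from 417 to 661 CPM. In pericyte-like cells 0 of 4 members passed 2-fold, where 2.22% of 5637 genes were higher and 2.11% lower.

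In NK or T-like cells 1 of 7 members was higher in the DTX library, where 1.12% of 6348 genes were, and 1.29% were lower. It was *Acod1*, from 13.5 CPM (8.46 to 20.4) to 28.2 CPM (20.2 to 38.4), on 22 and 40 UMIs. The neutrophil marker sum in that class was 19.0 CPM in the PBS library, with *Retnlg*, *Cxcr2* and *G0s2* at 0, and 188 CPM in the DTX library, with none at 0, and its part in the *Acod1* value was not tested. In endothelial-like cells 0 of 4 members passed 2-fold (1.86% of 4990 genes higher, 2.65% lower), and in Langerhans-like cells 0 of 4 (1.38% of 3833 higher, 2.01% lower).

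Among macrophage-like cells *Acod1* was held by few cells. In the PBS library the 5% of cells with the most *Acod1* held 84.4% of its UMIs and in the DTX library 78.5%, against 20.0% and 20.7% for *Cybb*. Such a share depends on the UMIs of a gene, which were 295 and 1457 for *Acod1* and 4997 and 11902 for *Cybb*. *Ncf1*, with 527 and 2645 UMIs, had 45.4% and 33.8%. The 7 subclusters, made without the 9 genes, are described without a test. Subcluster 3, led by *Cbr2*, *Folr2*, *Il10* and *Ccl7* with *Acod1* itself among its leading genes, had 152 CPM (129.97 to 177) of *Acod1* from 433 cells of the PBS library and 244 CPM (223 to 266) from 465 cells of the DTX library. The other subclusters with at least 20 cells had from 4.52 to 59.5 CPM, except subcluster 6 of the DTX library at 299 CPM (238 to 371) from 32 cells. That subcluster was led by *S100a9*, *S100a8* and *Retnlg* and had a neutrophil marker sum of 14043 CPM. The median depth of subcluster 3 was 2113 and 3791 UMIs per cell, below the 5178.5 to 6752 and 6130 to 8319.5 of the others with at least 20 cells. Its summed fibroblast markers were 1462 CPM in the PBS library, against 738 to 869.5 CPM in those others, and 266 CPM in the DTX library, against 169 to 212 CPM, and the part of depth and of these markers in its levels was not tested. At a finer resolution *Acod1* was 132 and 354 CPM in the PBS and DTX libraries in a cluster led by *Acod1*, *Tnip3* and *Il10*. The median depth of that cluster was 4934 and 6556 UMIs. A shallow cluster led by *Ccl8* and *Folr2* (1899 and 1934 UMIs) had 74.9 and 76.3 CPM. One led by *Ccl7*, *Pf4* and *Cbr2* had 33.7 and 33.3 CPM. In subcluster 3 the neutrophil marker sum was 698 and 875 CPM in the PBS and DTX libraries. Subclusters 0, 4 and 5 had less, at 595, 446 and 466 CPM in the PBS library and 537, 599 and 626 CPM in the DTX library. The Vcan-like cells had more, at 959 and 1227 CPM, as did the Cd9-like cells of the DTX library, at 1475 CPM. The part of neutrophil RNA in the *Acod1* of subcluster 3 was not tested. In another clustering only 68 genes were left out, the members and the other pathway genes. Among its clusters with at least 20 cells, none of the DTX library other than one of 30 cells exceeded 70.3 CPM of *Acod1*. The highest of the PBS library was 135 CPM, from 47 cells.

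Subcluster 3 also had the highest *Sod2* of the DTX library, 545 CPM (514 to 578), against 322 CPM (289 to 357) in the PBS library. The Cd9-like and Vcan-like cells of the DTX library followed with 423 CPM (408 to 438) and 372 CPM (359 to 385). Subcluster 5 of that library, named Klf2-like from its markers and led by *Hspa1a*, *Ctsk*, *Acp5* and *Lpl*, had the least, 176 CPM (159 to 194.8). *Sod2* thus went from higher in the DTX library in subcluster 3, by 0.76 (0.59 to 0.94) on the log2 scale, to lower in subcluster 5, by 0.46 (0.24 to 0.68 lower). At the finer resolution *Sod2* was 480 and 912 CPM in the cluster led by *Acod1*. In the shallow cluster led by *Ccl8* and *Folr2* it was 247 and 239 CPM.

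*Cybb* was lower in the DTX library in each of the 5 subclusters that could be compared, with the interval of the Vcan-like cells (−0.49 to 0.22) including 0. Subcluster 5 had the widest gap, from 755 CPM (708 to 804) to 332 CPM (309 to 357), a log2 ratio of −1.18 (−1.32 to −1.04). At a finer resolution its genes led separate clusters, and *Cybb* was 671 and 510.02 CPM in the one led by *Hspa1a* and *Klf2* but 984 and 221 CPM in the one led by *Ctsk* and *Acp5*. The Cd9-like cells of the DTX library had 231 CPM (220.4 to 242), the least of the subclusters with at least 20 cells. *Ncf4* had another order, at 301 CPM (285 to 317) and 277 CPM (266 to 289) in subcluster 4, which was MHC class II-like and led by *Il1r2* and *Ramp3*, and in the Vcan-like cells of the DTX library, and at 147 and 153 CPM in subclusters 3 and 5.

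Both ligase genes were higher in subclusters 0 and 3 than in 4 and 5. In the PBS library *Gclc* was 275 CPM (245 to 308) in subcluster 3 and 177 CPM (166 to 190) in subcluster 0, and 81.5 and 92.2 CPM in subclusters 4 and 5. *Gclm* was 314 and 251 CPM in the first pair and 147 and 153 CPM in the second. In the DTX library the same pairs stood at 120 and 105 CPM against 54.5 and 54.3 CPM for *Gclc*, and at 188 and 186 CPM against 98.8 and 74.6 CPM for *Gclm*. At the finer resolution 1 MHC class II-like cluster had both genes among its leading genes. In the PBS and DTX libraries it had 242 and 165 CPM of *Gclc* and 354 and 301 CPM of *Gclm*. The cluster named C1qa-like had 79.1 and 40.4 CPM of *Gclc* and 122 and 56.1 CPM of *Gclm*. Both genes were lower in the DTX library in subclusters 0, 3, 4 and 5, with intervals below 0, and the largest gap was that of *Gclc* in subcluster 3, at −1.19 (−1.45 to −0.95). The Vcan-like cells, the fifth that could be compared, stood at 0.27 (−0.29 to 0.88) for *Gclm* and 0.26 (−0.58 to 1.27) for *Gclc*, on 26 and 11 UMIs of the PBS library. The genes also differed in order there, since the Vcan-like cells of the DTX library had the highest *Gclm* (216 CPM, 206 to 226) while their *Gclc* was 91.3 CPM (85.1 to 97.8), beside the 120 CPM of subcluster 3.

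**Figure D5:**
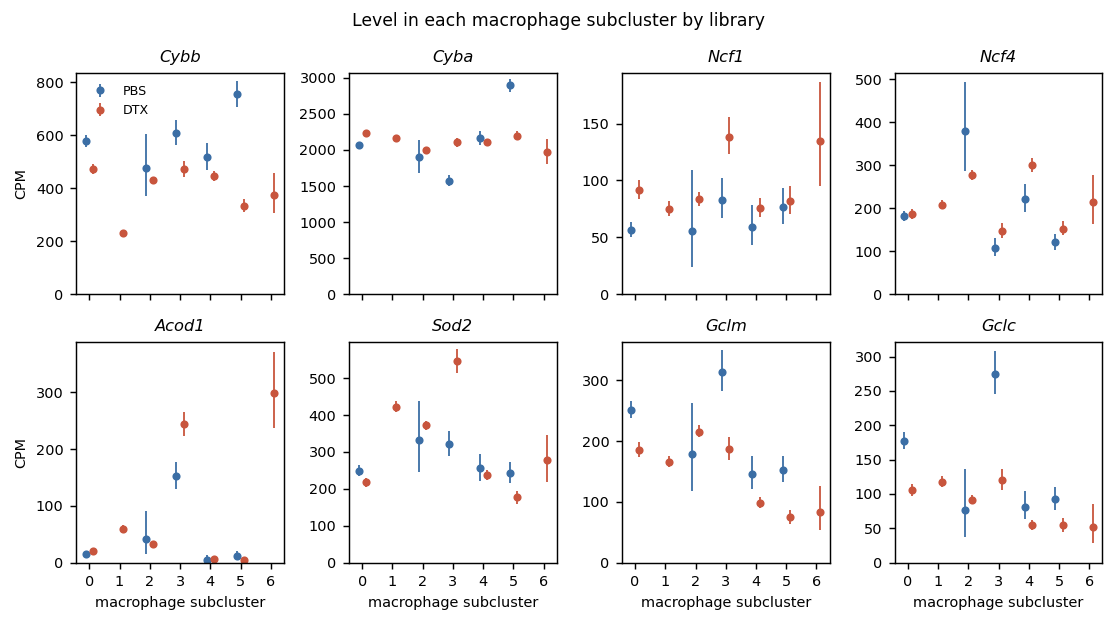
Levels of 8 genes in the macrophage-like subclusters with at least 20 cells, in CPM for the PBS and DTX libraries, with exact Poisson 95% intervals. *Acod1* stood at 152 and 244 CPM in subcluster 3 and at 299 CPM in subcluster 6 of the DTX library, and *Gclc* and *Gclm* were higher in subclusters 0 and 3 than in 4 and 5 in both libraries.

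Further pathway genes in macrophage-like cells were compared between libraries by the same rule. Of 9 oxidase genes and of 9 itaconate and TCA cycle genes 0 passed 2-fold, with median log2 ratios of −0.01 and 0.22, and 8 of the latter 9 lay above 0. Of 18 NRF2 and glutathione genes 1 was lower (*Blvrb*, biliverdin reductase, 363 and 177 CPM, −1.04), with a median of −0.27 and 12 genes below 0. Of 16 genes of superoxide and peroxide removal 1 was lower (*Gpx3*, a secreted glutathione peroxidase, 29.6 and 8.05 CPM, −1.76), with a median of 0.05. Of 2 other oxidant-producing enzymes 0 passed. Over all 10185 genes 1.65% were higher and 3.33% lower.

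Other listed genes of the NRF2 and glutathione list were within 2-fold. *Slc7a11* stood at 383 and 670.3 CPM (log2 ratio 0.80, 0.75 to 0.86), and *Gsr* at 86.9 and 158 CPM (0.85, 0.75 to 0.97). *Hmox1* stood at 4156 and 2379 CPM (−0.80, −0.82 to −0.79). *Nfe2l2*, which encodes NRF2, was 234 and 244 CPM (0.06, −0.01 to 0.13), and *Keap1*, its inhibitor, 22.1 and 17.7 CPM (−0.30, −0.56 to −0.07). The thioredoxin reductase *Txnrd1* differed by −0.23 (−0.28 to −0.18) and sulfiredoxin, *Srxn1*, by −0.32 (−0.38 to −0.27). Of the enzymes that remove superoxide and peroxide, *Sod1* differed by −0.31 (−0.41 to −0.21) and catalase, *Cat*, by −0.66 (−0.86 to −0.50), and in the oxidase list *Rac2* differed by −0.15 (−0.24 to −0.06). *Nos2*, the inducible nitric oxide synthase, had 0 UMIs in the PBS library and 26 in the DTX library.

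In neutrophil-like cells 1 of 12 NRF2 and glutathione genes was higher in the DTX library (*Tkt*, transketolase, on 4 and 49 UMIs with an interval that included 0) and 2 were lower. The lower genes were *Srxn1* at 356 and 145 CPM (−1.29, −1.76 to −0.80), and *Osgin1* at 484 and 197 CPM (−1.29, −1.70 to −0.88). Of 9 genes of superoxide and peroxide removal 1 was higher (*Glrx*, glutaredoxin, 141 and 389 CPM, 1.46, 0.83 to 2.17) and 1 lower (*Gpx4*, 477 and 232 CPM, −1.03, −1.43 to −0.63). Of 7 oxidase genes and 2 itaconate and TCA cycle genes 0 passed 2-fold, and no other oxidant-producing enzyme had enough UMIs. Over all 2241 genes 6.56% were higher and 6.87% lower.

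The genes whose class profile was most like that of each member were named as a description, from Pearson's r of log2 levels over 19 class and library profiles, which share libraries and depth, among 10231 genes. For *Acod1* these were *Hdc* (0.99), *Rab44* (0.97) and *Ccl3* (0.97). For *Cybb* they were *Clec4a3* (0.98), *Clec12a* (0.97) and *Lyz2* (0.96). *Ncf1* was most like *Plek*, *Slc2a6* and *Btk* and *Ncf4* most like *Snx20*, *Vav1* and *Psenen*, while *Cyba* was most like *Sp110*, *Sp100* and *Samhd1*. *Sod2* and the ligase genes had lower values, with *Gm14005* (0.92), *Fndc3b* and *Malat1* for *Sod2*, *Mindy1* (0.89), *Mafg* and *Rragc* for *Gclm*, and *Cep85l* (0.82), *Hmox1* and *Gsdmd* for *Gclc*. For the scarce *Nqo1* they were *Rbm18*, *Btbd7* and *Spaca6*. Among pairs of members the highest values were those of *Ncf1* with *Ncf4* (0.85), *Cybb* with *Cyba* (0.77) and *Gclm* with *Gclc* (0.74). Next came *Cyba* with *Ncf4* (0.71), *Acod1* with *Gclm* (0.69), *Cyba* with *Ncf1* (0.68) and *Cybb* with *Ncf4* (0.68).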

How the data were processed

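The authors aligned the reads of both 10x Genomics libraries to mm10 with Cell Ranger, as version 6.1.1 in the submitters' processing notes, and deposited for each library a filtered matrix of raw UMI counts over 31053 genes. The members and the pathway and marker lists were chosen with earlier results of these data known. The filter of 500 genes or more and no more than 6% mitochondrial UMIs left 8326 and 7188 cells. Scrublet in scanpy 1.11.5 called 382 doublets in the PBS library and 0 in the DTX library, where the top 575 scores were taken out in place of a call. Cells were clustered in Seurat 5.3.0 under R 4.3.3 (2000 variable genes, 30 principal components, resolution 0.2) and named from markers. Macrophage-like cells were clustered again at resolution 0.5 without 1035 genes, among them the 9 members. UMIs were summed by class and library with Python 3.11.15, pandas 2.3.3 and scipy 1.17.1, and given as CPM. Intervals of a level are exact Poisson, of a share Clopper-Pearson, and of a ratio exact conditional binomial. The ratio step was tested on simulated counts. No test between libraries was possible, with 1 library in each group. The 9 members were named in every class. Pathway genes were named by a fixed list in macrophage-like cells, or where they passed 2-fold between libraries, and for each member the 3 genes of highest correlation over class profiles were named. Alternatives were other limits on genes and mitochondrial UMIs, no removal of doublets, other resolutions, scaling by the median ratio, a mean over cells, another added CPM, other thinning and equal subcluster weights. The myocyte-like class had under 20 cells in each library and was not used. Gene positions are from GENCODE vM21 (31011 of 31053 identifiers found) and promoters from RefSeq. UMI counts of a 3′ library do not depend on transcript length in a simple way, so levels were not compared between genes. Values of 1 gene on the fixed list of pathway genes are not reported here.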

Additional observations from a re-analysis of the deposited data

Results flagged for a closer look

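For 3 genes the DTX to PBS ratio lay on different sides of 0 in different classes, with intervals that did not include 0, or differed widely in size. With 1 library per group the difference was not tested, and each value is a log2 ratio of (CPM + 1) with counting error only. *Cybb* was −0.63 in macrophage-like cells, 1.56 in fibroblast-like cells and 2.70 in epithelial-like cells, and the last 2 values rest on at most 82 UMIs in a library. Without removal of doublets the fibroblast-like value was 0.56. *Cyba* was −0.61 in neutrophil-like cells, 0.23 in dendritic-like cells, 0.30 in NK or T-like cells, 0.50 in fibroblast-like cells and 2.20 in epithelial-like cells. *Sod2* was −0.31 in dendritic-like cells, 0.12 in fibroblast-like cells, 0.24 in epithelial-like cells, 0.36 in macrophage-like cells and 0.90 in pericyte-like cells. The fibroblast-like value of *Sod2* pools clusters in different proportions, and within them it went from 942 to 1037 CPM and from 417 to 661 CPM. The summed macrophage markers went from 71.1 to 465 CPM in epithelial-like cells and from 117 to 432 CPM in fibroblast-like cells, and their part in these ratios was not tested.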

How the results depend on the processing

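No paired analysis was possible because each group has 1 library. Over the alternatives 421 log2 ratios of single members were recomputed, of which 388 had the sign reported. The median log2 ratio of the members in macrophage-like cells (−0.01) is the value of *Cyba*, near 0, and it was 0.19 when cells above 2000 genes were dropped, 0.080 with a lower limit of 300 genes, 0.077 at resolution 0.5, −0.074 with median ratio scaling, 0.094 as a mean over cells, −0.21 with equal subcluster weights and 0.037 with the 5 subclusters of at least 20 cells, an alternative chosen after seeing the data. Between libraries in neutrophil-like cells the number of members past 2-fold (0) was 1 with a lower limit of 300 genes, without removal of doublets, at resolution 0.5, with median ratio scaling and as a mean over cells, and 2 with a mitochondrial limit of 10%. Between neutrophil-like and macrophage-like cells of the DTX library it was 6, and 1 without removal of doublets (*Acod1*). Median ratio scaling, which sets the median of all genes there (−0.76) to 0, put *Cyba* at −0.36 (reported −1.12), *Ncf4* at 1.10 (reported 0.34) and *Gclc* at −0.61 (reported −1.36). When cells above 2000 genes were dropped, 1 member passed in fibroblast-like cells, where 5 were reported, and 0 in epithelial-like cells, where 3 were. The 1 member was *Gclc* (−1.06), which was not among the 5 reported. The DTX library then held 61 fibroblast-like and 16 epithelial-like cells, too few to show whether the reported differences persist. In the pathway lists, run under these settings after the data were seen, 1 gene in place of 2 passed at a mitochondrial limit of 10%. The number of members with a higher share of cells in neutrophil-like than in macrophage-like cells of the DTX library was 4 after thinning and 1 without. The number of members with a 2-fold range over macrophage subclusters in both libraries was 5, and 6 or 7 under the alternatives. The cause of these shifts was not tested. Depth limited *Nqo1* in all classes and *Gclc* and *Cybb* in the 119 neutrophil-like cells of the PBS library.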
